A study of Mus musculus with 2 samples.

Results

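The 7 mouse genes Cdkn1a, Cdkn1b, Cdkn2a, Cdkn2b, Cdkn2c, Cdkn2d and Cdkn3, whose products restrain cyclin-dependent kinases, were followed in irradiated and control liver. They were chosen by gene name, with earlier results of these data known. All 7 were found among the 22180 genes measured by a probe set with exactly 1 gene symbol. Each of the 7 had a single such probe set, so no choice among probe sets entered their values. Liver RNA of male C57BL/6 mice aged 9 weeks was hybridised to 2 Affymetrix arrays, 1 per group. The irradiated group had received a single whole-body gamma-ray dose of 6 Gy, at 0.81 Gy per minute, when 4 weeks old, and its liver was sampled 5 weeks afterwards. The control group was untreated, of the same strain, sex and age. The labels name no transgene or engineered allele in either group. They do not say whether an RNA came from 1 mouse or from several, nor whether control mice were anesthetized as the irradiated ones were. There was no replicate, so no difference below has a replicate check or a test, and the spread between animals is unknown.

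Cyclin-dependent kinases (CDKs) drive the cell cycle when bound to cyclins, and 2 protein families hold them back. The Cip/Kip proteins, here p21 (Cdkn1a) and p27 (Cdkn1b), bind whole cyclin-CDK complexes, whereas the Ink4 proteins, p16 (from Cdkn2a), p15 (Cdkn2b), p18 (Cdkn2c) and p19Ink4d (Cdkn2d), bind Cdk4 and Cdk6 and keep D-type cyclins off them. Cdkn3 encodes KAP, a phosphatase that removes an activating phosphate from CDKs. Cdkn1a is a textbook target of p53, the transcription factor activated by DNA damage, and p21 restrains hepatocyte division, for example during liver regeneration. The Ink4 genes are better known for a slow increase with ageing and senescence.

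Values are log2 RMA values, that is, log2 signal after background correction, normalization between arrays and summary of the probes of a probe set. Differences are irradiated minus control on that log2 scale. Genes that reached 6.06, the median of the whole deposited table, on at least 1 array are called expressed here, and a gene is called higher or lower from a 1.5-fold difference on. The floor is a rank and not a measured background. By this measure 13689 genes were expressed, of which 1.14% were higher and 0.65% lower on the irradiated array. Their differences had a median of -0.00 and a central 95% range of -0.37 to 0.42, and 48.5% of them were above 0. Hepatocyte markers identified the tissue on both arrays, with Alb, the albumin gene, at 13.70 in the irradiated and 13.68 in the control liver. Summed over 8 hepatocyte markers, the linear signal of the irradiated array was 1.00 times that of the control array. Much of this sum came from markers near the top of the value range, which reached 13.9, so the ratio says little about hepatocyte content.

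Cdkn1a was the 1 member past 1.5-fold. It read 8.87 in the irradiated liver and 7.16 in the control liver, a difference of 1.71, or 3.26-fold. Both values lay above the expression floor, so the fold does not rest on a control near the bottom of the scale. Only 14 expressed genes had a larger positive difference, which put Cdkn1a at rank 15 of 13689. In liver RNA taken in bulk, more cells with the transcript and more transcript per cell cannot be told apart.

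The other Cip/Kip member, Cdkn1b, whose product p27 holds resting cells out of the cycle, had nearly equal values on the 2 arrays. Cdkn1b read 7.87 in the irradiated liver and 7.87 in the control liver, a difference of -0.00. That is 1.00-fold, and it fell in the middle of all expressed genes, with 50.0% of them having a smaller difference. Cdkn1c encodes p57, the remaining protein of the Cip/Kip family, and is imprinted and best known from embryonic growth. It read 7.05 in the irradiated liver and 6.81 in the control liver, a difference of 0.24, short of 1.5-fold. It belongs to a list of 6 related genes outside the 7, with binding partners of Cdkn2a and of CDKs, all expressed. Of these 6, 0 were past 1.5-fold, against 1.14% higher and 0.65% lower over all expressed genes, and the median was 0.04.

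The 4 Ink4 genes showed small differences. Cdkn2a, which encodes p16 and, in another reading frame, the p53-stabilising protein Arf, read 6.88 in the irradiated liver and 6.83 in the control liver, a difference of 0.05. Its single probe-set value cannot separate the transcript of p16 from that of Arf. Cdkn2b lies beside it and encodes p15, a target of TGF-beta signalling. It read 7.03 in the irradiated liver and 6.83 in the control liver. This difference of 0.20, or 1.15-fold, was the next after that of Cdkn1a among the members, and stood at rank 1602 of 13689. Cdkn2c, the p18 gene, read 7.54 in the irradiated liver and 7.55 in the control liver, a difference of -0.00. Cdkn2d, the p19Ink4d gene, read 6.59 in the irradiated liver and 6.61 in the control liver, a difference of -0.02.

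Cdkn3 was the member below the expression floor on both arrays. It read 5.46 in the irradiated liver and 5.35 in the control liver, a difference of 0.11. KAP transcripts are most abundant in dividing cells, and values this low carry little information on direction. Of the 6 expressed members, 1 was at least 1.5-fold higher and 0 were lower, against backgrounds of 1.14% higher and 0.65% lower. With 6 genes that share comes from Cdkn1a alone, and the members were chosen with earlier results of these data known. The median difference of the 6 was 0.02, against -0.00 over all expressed genes, and 6 of the 7 members lay inside the central 95% range.

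**Figure D1:**
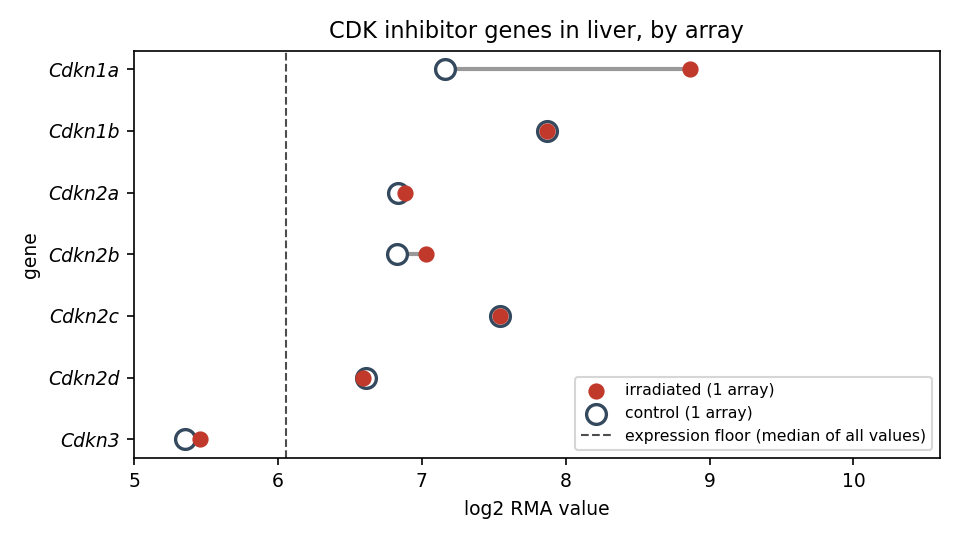
Log2 RMA values (horizontal axis) of the 7 CDK inhibitor genes, with a filled red point for the irradiated array and an open point for the control array, 1 array each; the dashed line marks the expression floor of 6.06. The points of Cdkn1a stand 1.71 apart, those of Cdkn2b 0.20 apart and those of the other genes 0.11 or less, and Cdkn3 lies below the floor on both arrays.

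The genes most like Cdkn1a over the 2 arrays were taken as the 3 named genes directly above and the 3 directly below it in the order of differences, leaving out predicted genes. With 2 arrays this likeness is only a similar difference. Above it stood Gadd45g, a growth arrest and stress gene, at 1.73, the glucuronosyltransferase gene Ugt2b37 at 1.72 and Slc26a3, a chloride-bicarbonate exchanger gene of the gut, at 1.71. Slc26a3 was below the floor in the control liver, at 5.17, and read 6.89 in the irradiated liver. Below Cdkn1a stood the aspartic protease gene Ctse at 1.68, the growth-promoting transcription factor gene Myc at 1.68 and Ly6d, which encodes a small membrane-anchored protein, at 1.64. Of these, Gadd45g read 11.22 in the irradiated liver and 9.49 in the control liver, and Myc read 10.34 in the irradiated liver and 8.66 in the control liver. A gene of growth arrest and a gene of growth stood within 0.03 of Cdkn1a on either side.

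**Figure D2:**
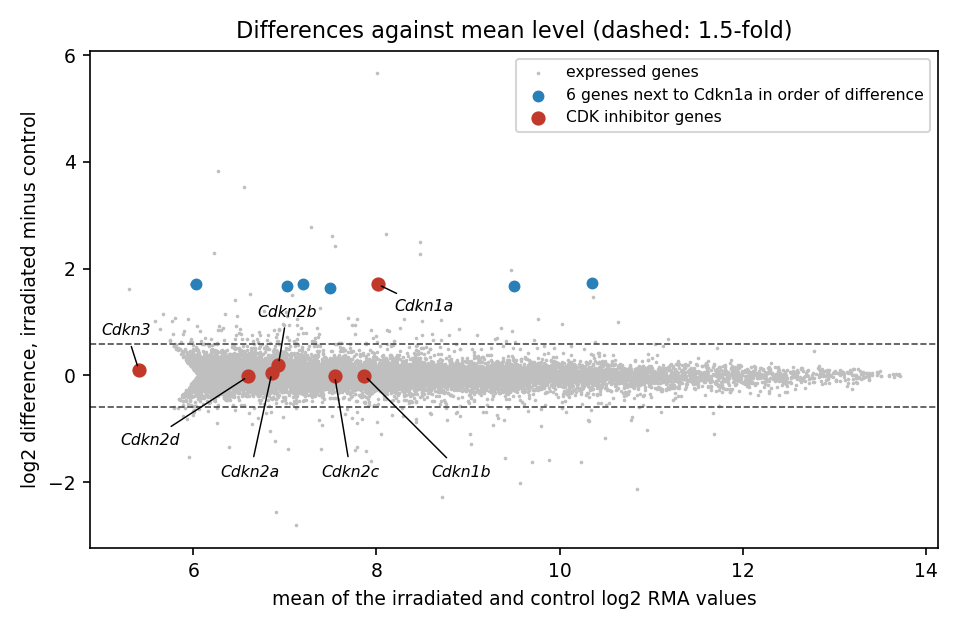
Log2 difference, irradiated minus control (vertical axis), against the mean log2 RMA value of the 2 arrays (horizontal axis) for expressed genes (grey), the 7 CDK inhibitor genes (red, with Cdkn3 added although it is below the floor) and the 6 genes next to Cdkn1a in the order of differences (blue); dashed lines mark 1.5-fold. Cdkn1a at 1.71 stands outside the grey band at its level, and the other 6 CDK inhibitor genes lie between -0.02 and 0.20.

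Sequence upstream of the transcript starts is shown for 3 members, since it is where Cdkn1a can be set beside members whose differences were small. The sequences are RefSeq's for GRCm38.p6, 250 bases ending just before an annotated start, read 5′ to 3′ on the gene's strand. Cdkn1a has 2 annotated starts that lie 2790 bases apart. Capitals mark the GC box GGGCGG on either strand, TATAA on the gene's strand, and a p53-like full site, defined as 2 adjoining p53 half-sites with at most 1 mismatch in the 20 bases. The first Cdkn1a window is chr17:29090729-29090978, strand +, and the second is chr17:29093519-29093768, strand +. The Cdkn1b window, from the Cip/Kip gene with a difference near 0, is chr6:134920151-134920400, strand +. The Cdkn2b window, from the Ink4 gene with the next difference, is chr4:89311033-89311282, strand -.
Cdkn1a, first start: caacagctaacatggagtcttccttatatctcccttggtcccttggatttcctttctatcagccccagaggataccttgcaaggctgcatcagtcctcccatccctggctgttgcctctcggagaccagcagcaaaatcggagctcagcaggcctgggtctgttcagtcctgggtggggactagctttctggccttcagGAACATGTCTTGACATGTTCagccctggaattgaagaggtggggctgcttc
Cdkn1a, second start: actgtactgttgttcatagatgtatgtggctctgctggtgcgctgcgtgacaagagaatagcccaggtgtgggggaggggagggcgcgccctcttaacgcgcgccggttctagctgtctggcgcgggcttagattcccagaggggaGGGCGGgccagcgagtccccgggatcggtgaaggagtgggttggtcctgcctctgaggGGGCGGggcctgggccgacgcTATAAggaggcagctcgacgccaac
Cdkn1b: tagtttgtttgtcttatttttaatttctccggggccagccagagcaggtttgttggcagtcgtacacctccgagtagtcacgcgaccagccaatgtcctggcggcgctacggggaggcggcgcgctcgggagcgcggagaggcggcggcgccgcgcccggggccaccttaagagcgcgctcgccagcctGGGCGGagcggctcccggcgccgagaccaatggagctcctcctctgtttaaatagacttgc
Cdkn2b: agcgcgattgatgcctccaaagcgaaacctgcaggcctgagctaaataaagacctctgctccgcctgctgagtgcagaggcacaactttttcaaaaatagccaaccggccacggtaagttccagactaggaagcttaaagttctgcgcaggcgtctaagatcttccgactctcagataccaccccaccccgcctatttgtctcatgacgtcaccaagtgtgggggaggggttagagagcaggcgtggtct

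The first Cdkn1a window held a p53-like full site, which begins 51 bases before that start, and had neither a GC box nor TATAA. The second held 2 GC boxes and TATAA 25 bases before the start, the layout of a classical core promoter. The Cdkn1b window held 1 GC box and the Cdkn2b window held none of the 3 marked motifs. RefSeq windows were found for all 7 members, 10 windows in all. A p53-like full site was present in 1 of the 10, and in 0.0578% of all 32851 windows of the same length. A p53 half-site was present in 2 of the 10, the first window of Cdkn1a and that of Cdkn2d, against 7.13% of all windows. The GC box was present in 6 of the 10 (32.7% of all), TATAA in 1 (16% of all), the box CCAAT on either strand in 3 (33.8% of all), and the E-box CACGTG, which reads the same on both strands, in 0 (6.02% of all). A match describes the letters and is not evidence of binding, and a window without a match says nothing about sites farther away. The array value does not tell which of the Cdkn1a starts was in use.

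The same p53-like full site was found upstream of 19 genes in all, of which 10 were measured and 4 expressed. The 4 sites are shown because these genes carry alike letters and unlike differences, with capitals for bases that match the half-site pattern and lower case for the mismatch. They lie at chr17:29090928-29090947 (strand +) for Cdkn1a, chr11:40755462-40755481 (strand -) for Ccng1, chr9:66946296-66946315 (strand +) for Rps27l and chr12:76255090-76255109 (strand +) for Mthfd1, in GRCm38.p6.
Cdkn1a: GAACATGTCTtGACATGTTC
Ccng1: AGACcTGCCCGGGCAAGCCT
Rps27l: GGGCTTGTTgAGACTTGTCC
Mthfd1: AAACTTGCTCAGACAgGCCC

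Ccng1, the cyclin G1 gene and a well-known p53 target, read 11.05 in the irradiated liver and 10.89 in the control liver, a difference of 0.16. Rps27l, a ribosomal protein-like gene that p53 also activates, read 9.08 in the irradiated liver and 9.06 in the control liver, a difference of 0.02. Mthfd1, an enzyme gene of folate metabolism, read 10.99 in the irradiated liver and 11.13 in the control liver, a difference of -0.14. Of the 4 expressed genes with such a site, Cdkn1a was the 1 past 1.5-fold, where 1.14% of all expressed genes were higher. The other 3 lay between -0.14 and 0.16. This motif search was chosen after the values had been seen.

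A list of 29 genes held p53 itself and targets of it other than Cdkn1a. The p53 gene and 3 of the targets, Bax, Gdf15 and Gadd45a, were not analysed here, which left 25 targets, 23 of them expressed. Of these 23, 3 were at least 1.5-fold higher and 0 lower, against 1.14% and 0.65% of all expressed genes. Of the 23, 13 were above 0, against 48.5% of all expressed genes, and the median was 0.08. The 3 were the antiproliferative gene Btg2, the stress kinase gene Plk3 and the mTOR inhibitor gene Ddit4. Btg2 read 10.29 in the irradiated liver and 9.23 in the control liver, a difference of 1.05. Plk3 differed by 0.68 and Ddit4 by 0.60, and Ddit4 fell short of 1.5-fold after median centring (0.58) and with the offset of 32 on the linear scale (0.51). The gene of the p53-degrading ligase, Mdm2, is itself a p53 target and read 8.58 in the irradiated liver and 8.55 in the control liver, a difference of 0.03. The difference of Cdkn1a was larger than that of any of the 23 genes, in a list chosen with earlier results of these data known. Mdm2 and Ccng1 lay inside the central 95% range, and the listed target Tnfrsf10b, at 0.46, lay above it. A part of p53 in these differences was not tested.

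Factors other than p53 that are known to act on Cdkn1a were a list of 30 genes, 27 of them expressed, with a median of 0.02. Of these, 2 were at least 1.5-fold higher and 0 lower, against 1.14% and 0.65% of all expressed genes. Egr1, an immediate early transcription factor that can activate Cdkn1a, read 9.61 in the irradiated liver and 7.34 in the control liver, a difference of 2.27. The other was Myc, a repressor of Cdkn1a, given above. The remaining 25 expressed factors differed by less than 1.5-fold.

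Genes of CDKs and CDK-like kinases formed a list wider than the kinases on which the inhibitors act. Of 23 listed CDK genes 20 were expressed, with 0 past 1.5-fold, against 1.14% higher and 0.65% lower over all expressed genes. With shares this small, a count of 0 in a list of this length says little about the list. Above 0 were 14 of the 20, against 48.5% of all expressed genes, and the median was 0.05. Cdk2, the main partner of p21 and p27, read 8.02 in the irradiated liver and 7.96 in the control liver, a difference of 0.07. Cdk4, a target of the Ink4 proteins, differed by 0.06, and Cdk6, the other target, by -0.16. Cdk1, the kinase of mitosis, had the highest difference of the list, 0.46, with 7.74 in the irradiated liver and 7.29 in the control liver.

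Of 12 cyclin genes of the cell cycle 8 were expressed, with 0 past 1.5-fold in either direction and a median of 0.00. Over all expressed genes 1.14% were higher and 0.65% lower, so counts of 0 in the short lists of this paragraph say little. Ccnd1, the cyclin D1 gene, differed by 0.01, Ccne1, the cyclin E1 gene, by 0.22 and Ccna2, the cyclin A2 gene, by -0.08. Genes for pocket proteins, E2F factors and their partners, which lie downstream of the CDKs, numbered 16 expressed of 18, with 0 past 1.5-fold and a median of 0.04. Rb1, the retinoblastoma gene, differed by 0.10, and E2f1, an activator of S-phase genes, by 0.34. Genes that degrade or partner CDK inhibitors, listed together with the CDK regulator genes Cdc25a, Cdc25b, Cdc25c and Wee1, numbered 15 expressed of 19. Again 0 were past 1.5-fold, and the median was -0.00. Skp2, which marks p27 for destruction, differed by 0.01, and Pcna, the replication clamp that p21 can bind, by 0.12.

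E2F-driven replication and division genes are transcribed once CDKs have freed E2F from the pocket proteins. Of 26 listed, 22 were expressed and the median was 0.08. Of the 22, 13 were above 0 and 9 below, whereas 48.5% of all expressed genes were above 0. In the deposited values 0 reached 1.5-fold in either direction, against 1.14% higher and 0.65% lower over all expressed genes. Gins1, a subunit gene of the replicative helicase complex, was at -0.58, and it passed 1.5-fold on the lower side after each of the 3 other scalings. It read 5.72 in the irradiated liver, below the floor, and 6.29 in the control liver, and with values set to the floor its difference was -0.24. Birc5 was nearly as low, at -0.55, and was also below the floor in the irradiated liver, at 5.61. The highest difference of the list was that of Mcm6, at 0.44. Mki67, the proliferation marker gene, read 6.45 in the irradiated liver and 6.20 in the control liver, a difference of 0.25. Both values were close to the floor.

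Polycomb and other regulators of the Ink4 genes had 19 expressed members of 22. Of these, 16 were below 0 and 3 above, whereas 48.5% of all expressed genes were above 0. The median was -0.11, against -0.00 over all expressed genes. Regardless of sign, the median size of a difference over all expressed genes was 0.11. Repressors and activators of the Ink4 genes were not separated in this list, so these signs give no direction for either kind. Bmi1, also listed, was left out of the 19 because it was below the floor on both arrays. It read 5.93 in the irradiated liver and 5.60 in the control liver, a difference of 0.33. At least 1.5-fold higher were 0 and lower 1, against 1.14% and 0.65% of all expressed genes. The lower gene was Tbx3, a T-box repressor that can silence Cdkn2a. It read 8.51 in the irradiated liver and 9.22 in the control liver, a difference of -0.71. Cdkn2a itself differed by 0.05, as given above. Senescence and secretory genes had 15 expressed members of 22, with 2 at least 1.5-fold higher, 0 lower and a median of 0.10, against 1.14% higher and 0.65% lower over all expressed genes. Of the 15, 13 were above 0 and 2 below, whereas 48.5% of all expressed genes were above 0. The list was not sorted by the direction each gene takes in senescence, and the 13 included Lmnb1 (0.08) and Hmgb1 (0.05). The 2 higher genes were the macrophage elastase gene Mmp12 and Gpnmb, a gene of lipid-laden macrophages. Mmp12 read 6.74 in the irradiated liver and 5.88 in the control liver. Gpnmb read 6.28 in the irradiated liver and 5.65 in the control liver. Both control values lay below the floor, and with values set to the floor Mmp12 stayed past 1.5-fold and Gpnmb did not.

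**Figure D3:**
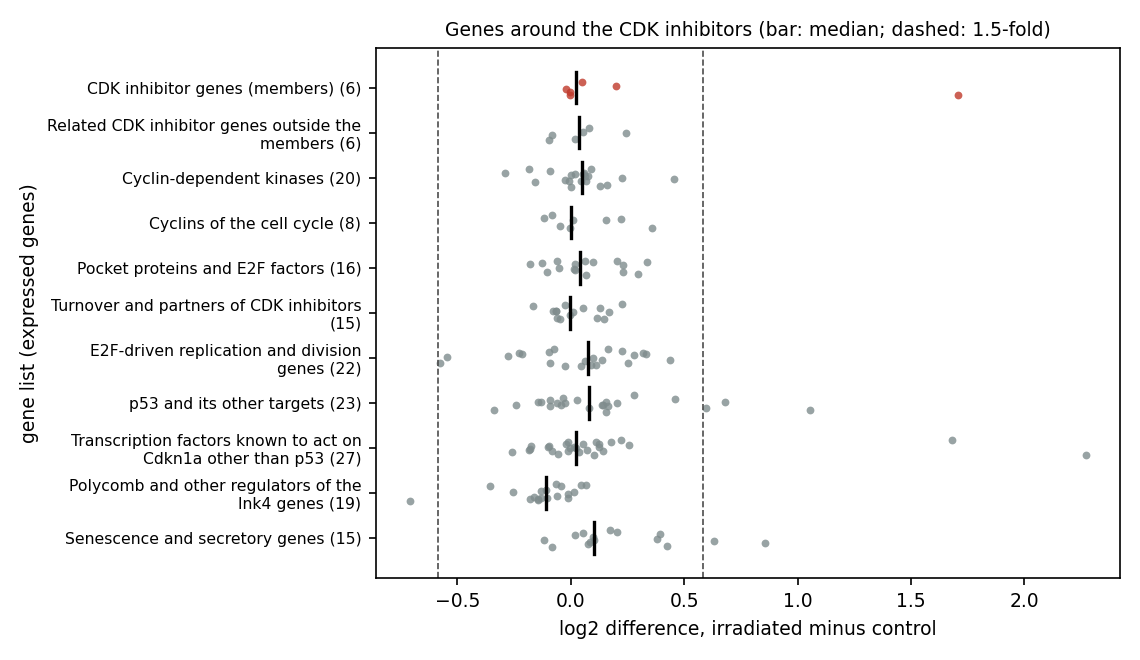
Log2 difference, irradiated minus control (horizontal axis), of the expressed CDK inhibitor genes (red) and of expressed genes in 10 lists around them (grey, number of genes in brackets), with a black bar for the median and dashed lines at 1.5-fold. Medians run from -0.11 for regulators of the Ink4 genes to 0.10 for senescence and secretory genes, and Cdkn1a at 1.71 lies far from the other 5 red points.

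The genes beside each member on its chromosome were also read, to see whether a difference was shared along the locus; this was chosen after the values had been seen. The 3 nearest measured protein-coding genes on each side were taken from the RefSeq gene order. Around Cdkn1a, 5 of 6 neighbours were expressed, and they lay between -0.16 and 0.04. The nearest were Srsf3, a splicing factor gene, at 0.03 and Rab44, a small GTPase gene, at 0.04. At that locus Cdkn1a was past 1.5-fold and 0 of its 5 expressed neighbours were. Over all expressed genes 1.14% were higher and 0.65% lower, so a count of 0 among 5 is usual at any locus.

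Cdkn2a and Cdkn2b are next to each other in that order, and the metabolic enzyme gene Mtap beside them differed by -0.17. Over all members, 28 of 36 neighbours were expressed and the median was -0.02. Of the 28, 1 was at least 1.5-fold higher and 0 lower, against 1.14% and 0.65% of all expressed genes. The higher neighbour was Bmp4, a growth factor gene of the BMP family beside Cdkn3. Bmp4 read 8.31 in the irradiated liver and 7.61 in the control liver, a difference of 0.69.

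**Figure D4:**
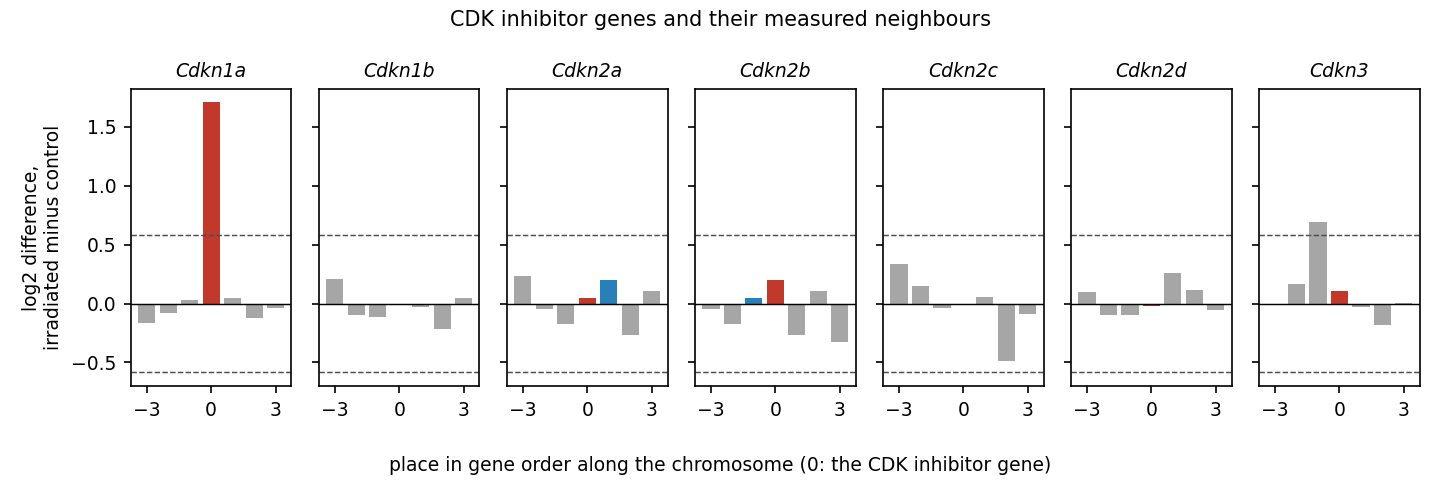
Log2 difference, irradiated minus control (vertical axis), of each CDK inhibitor gene (red, place 0) and up to 3 measured genes on each side in chromosome order (grey, or blue where the neighbour is also a CDK inhibitor gene); dashed lines mark 1.5-fold, and each bar is a difference between 1 irradiated and 1 control array. The Cdkn1a bar of 1.71 stands among neighbours between -0.16 and 0.04.

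Markers of some other cell types moved with Cdkn1a between the 2 arrays. Of 9 bile duct (cholangiocyte) markers 7 were measured. All 7 were above 0, against 48.5% of all expressed genes, and 4 were at least 1.5-fold higher, against 1.14%. Their summed linear signal was 1952 in the irradiated liver and 669 in the control liver, a ratio of 2.92. Most of it came from the mucin gene Muc1 (difference 2.62) and the surface protein gene Cd24a (2.50), and without these 2 the ratio was 1.46, an alternative chosen after seeing the data. Krt19, a duct keratin gene, read 7.37 in the irradiated liver and 6.18 in the control liver. The keratin gene Krt7 (0.29) and the duct transcription factor gene Sox9 (0.19) stayed short of 1.5-fold, and Cftr was below the floor on both arrays. Of 8 smooth muscle and stellate markers, 7 were above 0 and 4 at least 1.5-fold higher, against the same 48.5% and 1.14%. Their summed linear signal was 4308 in the irradiated liver and 2466 in the control liver, a ratio of 1.75. The contractile genes Cnn1 (2.42) and Acta2 (1.97) carried most of this, and without them the ratio was 1.22. Des (0.95) and Tagln (0.59) of the same list were also past 1.5-fold. Myh11 (0.40) and the stellate and pericyte markers Lrat (0.18), Rgs5 (0.16) and Pdgfrb (-0.01) stayed short of it. The sums of the other lists differed less, with ratios of 1.18 for Kupffer cells and macrophages, 1.00 for endothelium, 1.02 for lymphocytes and 0.913 for erythroid cells. The part of these cells in the Cdkn1a difference was not tested.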

How the data were processed

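Liver RNA of 2 samples, 1 irradiated and 1 control, was measured on Affymetrix whole-transcript arrays from 300 ng of RNA each, per the labels. The deposited log2 values were made by the authors with RMA in Affymetrix Expression Console 1.3.1, per the submitters' processing notes. The log base was read from the range of the values, 1.46 to 13.9 in all. Because RMA normalizes the arrays to each other, a change in total RNA per cell cannot be seen. Of 41345 probe sets, 23521 had 1 gene symbol in GEO's platform annotation, and the one with the highest mean stood for each gene. Genes without such a probe set were not analysed here.

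Differences were computed in Python 3.11.15 with pandas 2.3.3. With 1 array per group no test could be made, and the number of arrays limits the precision. The procedure was run on simulated data with low noise and planted shifts far past the threshold. That run checks the code and says nothing about the error of the differences given here. The members, the 10 lists and the thresholds were chosen with earlier results of these data known. Named genes were all members, up to 4 genes per list with the largest differences past 1.5-fold, some fixed by name, and the neighbours of Cdkn1a in the order of differences. Genes named from the motif search, the chromosome neighbours and the marker lists, and some further genes of the 10 lists, were added to these. Promoter sequences were RefSeq's for GRCm38.p6. Probe sets carry no coordinates here, since the build they were designed on is not given in the sources used. Alternatives changed the scaling, the probe-set choice, the floor, the size threshold and an added offset.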

Additional observations from a re-analysis of the deposited data

How the results depend on the processing

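No paired analysis was possible because there was a single array on each side. The difference of Cdkn1a lay between 1.51 and 1.71 under the 4 alternatives that could move it, the 3 scalings and the offset, past 2-fold in each. The other 3 could not, since Cdkn1a has 1 probe set and both values above the floor. The lowest value, 1.51, came with an offset of 32 on the linear scale, which shrinks every difference of a low gene. When low values were raised to the floor, Cdkn3 differed by 0 by construction. Cdkn2b lay between 0.16 and 0.20, and the sign of Cdkn1b, at -0.02 to 0.01, was not stable. Genes at least 1.5-fold higher numbered 95 with the offset, 272 with no floor and 70 when the floor was moved to the 75th percentile, against 156. With no floor 197 were lower, against 89, and at 2-fold 44 were higher and 25 lower. Of the lists, E2F-driven genes had 1 lower gene after median centring, quantile or loess scaling, against 0. Senescence genes had 1 higher gene with the offset or with values set to the floor, and 0 at 2-fold or under the 75th percentile floor, against 2. p53 targets had 2 higher genes after median centring or with the offset, where Ddit4 was lost, and 1 at 2-fold, against 3. At 2-fold, regulators of the Ink4 genes had 0 lower genes, against 1. Leaving out genes of the marker lists, chosen after seeing the data, touched 1 list, that of factors acting on Cdkn1a, whose counts stayed at 2 higher and 0 lower with a median of 0.03.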
